A study of Mus musculus with 12 samples.

Results

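The expression of 10 genes that set up and mark the oligodendrocyte lineage was compared between the cerebella of Ciz1 knockout and wild-type mice. Of the 10 genes, 7 are lineage transcription factors (Olig1, Olig2, Sox10, Nkx2-2, Nkx6-2, Tcf7l2 and Zfp488) and 3 are precursor surface markers (Pdgfra, Cspg4 and Gpr17). They were chosen by name as lineage factors and precursor markers, and each was read from the array row that carries its symbol alone. All 10 had exactly 1 such row, out of 22180 genes with a row of their own. Levels are log2 of the deposited intensity, and a difference is knockout minus wild type on that scale unless another direction is named.

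Total RNA of the cerebellum was hybridised to Affymetrix whole-transcript arrays, 12 arrays for the 12 animals that the extraction protocol lists. The 12 arrays form 4 groups of 3 by genotype and sex, called WT_male, WT_female, KO_male and KO_female. The knockouts are Ciz1-/-. The controls are Wild Type by their source name and Ciz1+/+ by the extraction protocol, while their genotype field reads Ciz1+/-, and how the Ciz1 allele was made is not given in the sources used here. All animals were adults, aged 10 months by the extraction protocol and 6 to 10 months by the series design, and received no treatment that the labels name. No cell type was sorted, so every level is an average over the cells of the tissue, and fewer cells of a type and less RNA per cell cannot be told apart. Replicate numbers only name an array.

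Oligodendrocytes make the myelin sheaths of the central nervous system and arise from precursor cells that persist in the adult brain. Precursors carry the PDGF receptor Pdgfra and the proteoglycan Cspg4 (NG2), and the receptor Gpr17 marks a passing stage between precursor and myelin-forming cell. The basic helix-loop-helix factors Olig1 and Olig2 and the high-mobility-group factor Sox10 act at every stage of the lineage, Nkx2-2, Zfp488 and the Wnt effector Tcf7l2 act around the onset of differentiation, and Nkx6-2 is a homeobox factor of mature oligodendrocytes. In the cerebellum many of these cells lie in the white matter and the granule cell layer.

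RefSeq promoter sequences of build GRCm38.p6 were used for 7 of the 10 genes. No sequence was used for Olig1, Sox10 and Gpr17, so the counts below do not cover them. The 250 bases before the annotated start are shown for 4 genes on which the comparisons between arrays below turn, 5′ to 3′ on the strand of the gene. Capitals mark matches to 3 searched motifs: a Sox core (ACAAAG or ACAATG), an E-box (CANNTG), the class of site that Olig proteins bind, and a TCF/LEF core (CTTTGA).
Olig2, chr16:91225300-91225549, plus strand: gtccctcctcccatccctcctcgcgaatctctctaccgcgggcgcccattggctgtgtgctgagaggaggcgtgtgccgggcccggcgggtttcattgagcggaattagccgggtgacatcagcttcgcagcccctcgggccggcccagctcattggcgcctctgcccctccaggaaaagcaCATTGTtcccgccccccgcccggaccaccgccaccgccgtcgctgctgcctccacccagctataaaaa
Nkx6-2, chr7:139582798-139583047, minus strand: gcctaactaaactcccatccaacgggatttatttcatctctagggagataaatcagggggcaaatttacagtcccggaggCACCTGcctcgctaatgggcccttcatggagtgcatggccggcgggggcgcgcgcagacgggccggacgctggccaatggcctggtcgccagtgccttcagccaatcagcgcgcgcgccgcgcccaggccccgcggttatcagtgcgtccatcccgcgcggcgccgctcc
Tcf7l2, chr19:55741560-55741809, plus strand: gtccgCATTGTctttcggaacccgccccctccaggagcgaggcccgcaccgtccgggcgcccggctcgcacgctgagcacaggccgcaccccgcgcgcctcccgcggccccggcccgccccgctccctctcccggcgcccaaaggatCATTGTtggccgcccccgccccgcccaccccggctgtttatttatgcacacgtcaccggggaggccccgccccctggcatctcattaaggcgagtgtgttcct
Pdgfra, chr5:75152001-75152250, plus strand: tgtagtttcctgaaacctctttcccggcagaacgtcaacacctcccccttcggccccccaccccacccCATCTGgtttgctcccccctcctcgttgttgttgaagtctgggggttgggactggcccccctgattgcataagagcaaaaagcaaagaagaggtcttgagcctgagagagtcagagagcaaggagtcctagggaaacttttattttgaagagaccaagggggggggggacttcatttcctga

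Both strands were searched. In these windows Tcf7l2 held 2 Sox cores and Olig2 held 1, while Nkx6-2 and Pdgfra held 1 E-box each. Over the 7 promoters a Sox core occurred in 2 and an E-box in 3, the third being Nkx2-2, against 25.2% and 66.2% of all 32851 windows of the same length in the table. No window of the 7 held a TCF/LEF core, which 13.8% of all windows held. An NK2 core (AAGTG), which can overlap an E-box, occurred in the Nkx2-2 promoter alone, against 40.7% of all windows. All 7 promoters were richer in G and C than the median window, at 54.4% for Pdgfra to 72.8% for Tcf7l2 against 52.4%. Tcf7l2 is listed with a further start site, and its first entry was used. A match describes the letters only, and binding was not measured. Olig1 and Olig2 lie on chromosome 16 with 1 annotated gene model between them in that assembly.

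Ciz1 separated the genotypes, at 8.70 to 8.90 in the wild-type arrays and 6.82 to 7.31 in the knockout arrays. The Y-linked genes Eif2s3y, Kdm5d and Uty separated the sexes on every array. Xist stood at 11.9 to 12.3 in females and at 5.75 to 6.67 in 5 males, but at 8.71 in WT_male replicate 3, so differences that this array moved by over 1.5 times are given without it beside the comparison of the sexes. Array medians of the deposited intensity lay between 96.5 and 98.7, and no 2 arrays were identical. Granule and Purkinje cell markers were bright, with Gabra6, a GABA receptor subunit of granule cells, at 11.9 and Calb1, a calcium buffer of Purkinje cells, at 12.3 on average. Olfactory receptor genes, which should be silent here, had a median level of 4.37 and a 95th percentile of 6.47. All 10 lineage genes lay above that percentile, from Tcf7l2 at 6.86 to Olig1 at 8.76 on average, and 5 of 10 lay above the 99th percentile of 7.39. The remaining 5 (Sox10, Nkx2-2, Nkx6-2, Tcf7l2 and Cspg4) lay within the upper range of these silent rows.

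None of the 10 lineage genes passed the genotype test over both sexes, against 0.0225% of all genes (5 of 22180; limma, Benjamini-Hochberg adjusted p under 0.05). At an unadjusted p under 0.05 there were 2 of 10, Sox10 and Nkx6-2, both lower in the knockout, where 9.26% of all genes passed that rule and 4.87% passed it with a lower level. Among the 7 transcription factors 4 were lower and 3 higher, with a median difference of -0.12. All 3 surface markers were higher, by 0.0083 to 0.11. The median over all genes tested was -0.00072. The plot of levels shows the spread within the groups against which these differences stand.

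**Figure D1:**
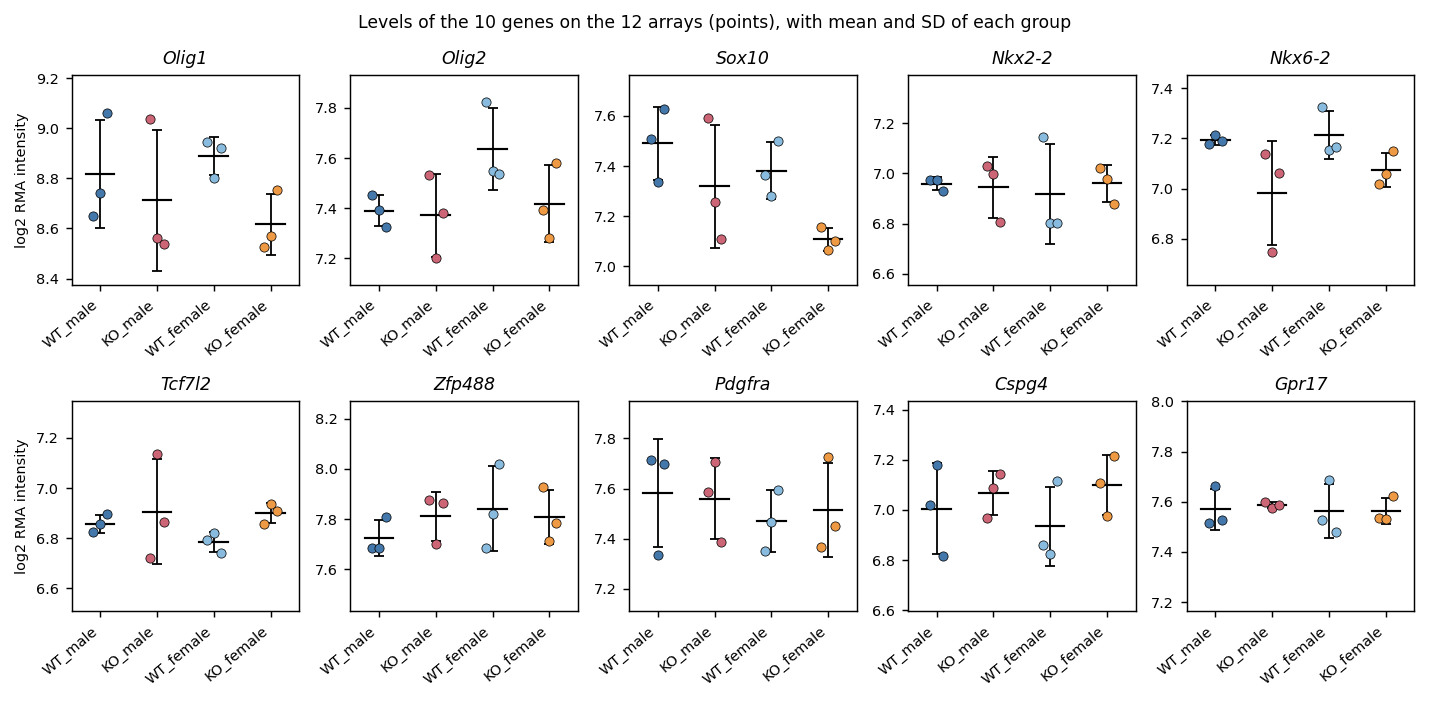
Levels of the 10 lineage genes as log2 RMA intensity (vertical axis, each panel spanning 0.84) on the 12 arrays, by group of genotype and sex. Points are arrays, long bars are group means and error bars are SD (n = 3). Nkx6-2 is the gene whose 6 knockout arrays all lie below its 6 wild-type arrays, by 0.0025 at the closest, and KO_male replicate 2 is its lowest point.

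Olig1 and Olig2, neighbours on the chromosome, were lower on average in the knockout without passing the test. Olig1, which is needed for maturation and myelin repair, stood at 8.65, 8.74 and 9.06 in WT_male, 8.94, 8.80 and 8.92 in WT_female, 9.04, 8.56 and 8.54 in KO_male and 8.53, 8.57 and 8.75 in KO_female. The female arrays of the genotypes did not overlap, whereas the males did, KO_male replicate 1 being as high as the highest wild types. The difference was -0.19 (SE 0.10; 95% interval -0.40 to 0.02; limma adjusted p = 0.58), or -12.3% of the intensity. Olig2, which specifies the lineage, stood at 7.45, 7.39 and 7.33 in WT_male, 7.83, 7.55 and 7.54 in WT_female, 7.53, 7.20 and 7.38 in KO_male and 7.39, 7.28 and 7.58 in KO_female. The genotypes overlapped in each sex, while the WT_male arrays all lay below the WT_female arrays, of which replicate 1 was the highest of all 12. Its difference was -0.12 (SE 0.08; 95% interval -0.28 to 0.05; adjusted p = 0.661), and it was -0.07 without WT_female replicate 1.

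Sox10, which switches on myelin genes together with Myrf, had the largest difference of the 10 in the knockout. It stood at 7.51, 7.34 and 7.63 in WT_male, 7.36, 7.28 and 7.50 in WT_female, 7.59, 7.26 and 7.11 in KO_male and 7.16, 7.06 and 7.10 in KO_female. The 3 KO_female arrays lay below every wild-type array, while KO_male replicate 1 lay near the top of all 12. Wild-type arrays averaged 7.44 ± 0.13 (SD, n = 6) and knockout arrays 7.21 ± 0.20 (SD, n = 6), a difference of -0.22 (SE 0.08; 95% interval -0.40 to -0.04; limma adjusted p = 0.472) or -14.3%. Over the 12 fits with 1 array left out it ranged from -0.29, without KO_male replicate 1, to -0.17, without KO_male replicate 3, and no fit passed after adjustment.

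Nkx6-2, the homeobox factor of mature oligodendrocytes, was the member whose genotypes did not overlap over both sexes, 1 of 10 where 0.55% of all genes had no overlap. Its levels were 7.18, 7.22 and 7.19 in WT_male, 7.32, 7.15 and 7.17 in WT_female, 7.14, 6.75 and 7.06 in KO_male and 7.02, 7.06 and 7.15 in KO_female. The gap between the lowest wild-type and the highest knockout array was only 0.0025, far under the SD within a group (0.12), and KO_male replicate 2 lay well below the rest. Wild-type arrays averaged 7.20 ± 0.06 (SD, n = 6) and knockout arrays 7.03 ± 0.15 (SD, n = 6). The difference was -0.18 (SE 0.07; 95% interval -0.32 to -0.03; limma adjusted p = 0.49), and it was -0.12 without KO_male replicate 2. Nkx2-2, a homeobox factor of differentiating precursors, gave no such separation. It stood at 6.97, 6.97 and 6.93 in WT_male, 7.15, 6.80 and 6.80 in WT_female, 7.03, 7.0 and 6.80 in KO_male and 7.02, 6.98 and 6.88 in KO_female, with all groups overlapping. Its difference was 0.014 (SE 0.07; 95% interval -0.13 to 0.16; adjusted p = 0.974).

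Tcf7l2, the partner of beta-catenin in newly differentiating oligodendrocytes, was higher on average in the knockout. Its levels were 6.82, 6.85 and 6.90 in WT_male, 6.79, 6.82 and 6.74 in WT_female, 6.72, 7.13 and 6.86 in KO_male and 6.86, 6.94 and 6.91 in KO_female. KO_male replicates 1 and 2 were the lowest and the highest of all 12 arrays, and the female genotypes did not overlap. The difference was 0.083 (SE 0.06; 95% interval -0.05 to 0.22; adjusted p = 0.71), and it was 0.026 without KO_male replicate 2. Zfp488, a zinc-finger corepressor that works with Olig2, stood at 7.69, 7.68 and 7.81 in WT_male, 7.69, 7.82 and 8.02 in WT_female, 7.87, 7.70 and 7.86 in KO_male and 7.93, 7.71 and 7.79 in KO_female. All groups overlapped in Zfp488, and the difference was 0.026 (SE 0.07; 95% interval -0.12 to 0.17; adjusted p = 0.94).

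The precursor surface markers did not pass the test, and their intervals describe the array intensity only, not the transcript or the number of precursors. Pdgfra averaged 7.53 and Gpr17 7.57, little above the 99th percentile of the olfactory receptor genes, 7.39. Pdgfra, the receptor through which PDGF-A drives precursor division, stood at 7.72, 7.34 and 7.70 in WT_male, 7.35, 7.47 and 7.59 in WT_female, 7.59, 7.70 and 7.39 in KO_male and 7.37, 7.72 and 7.45 in KO_female. High and low arrays occurred in every group. Its difference was 0.0098 (SE 0.09; 95% interval -0.19 to 0.21; adjusted p = 0.985), that is from -12.2% to 15.4% of the intensity. Gpr17 was the steadiest of the 10, with a within-group SD of 0.07. It stood at 7.52, 7.66 and 7.53 in WT_male, 7.53, 7.69 and 7.48 in WT_female, 7.60, 7.58 and 7.59 in KO_male and 7.54, 7.53 and 7.62 in KO_female. The knockout arrays all lay within the range of the wild-type arrays. Its difference was 0.0083 (SE 0.05; 95% interval -0.10 to 0.11; adjusted p = 0.979), that is from -6.51% to 8.20% of the intensity.

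Cspg4, the NG2 proteoglycan that pericytes carry as well as precursors, had the largest positive difference of the 10. It stood at 7.02, 7.18 and 6.82 in WT_male, 6.86, 6.83 and 7.12 in WT_female, 6.97, 7.09 and 7.14 in KO_male and 7.11, 6.97 and 7.21 in KO_female. The groups overlapped, and the wild-type arrays spread more widely than the knockout arrays. The difference was 0.11 (SE 0.08; 95% interval -0.05 to 0.28; adjusted p = 0.67) and 0.07 without WT_male replicate 3, the array with the raised Xist level. The 11 measured pericyte and smooth muscle markers, among them Pdgfrb (-0.09), Rgs5 (0.11) and Kcnj8 (-0.0066), had a median difference of 0.01, with 0 passing in either direction. Their mean log2 level ranged from 7.86 to 7.95 over the wild-type arrays and from 7.80 to 8.09 over the knockout arrays, and its part in the Cspg4 values was not tested.

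**Figure D2:**
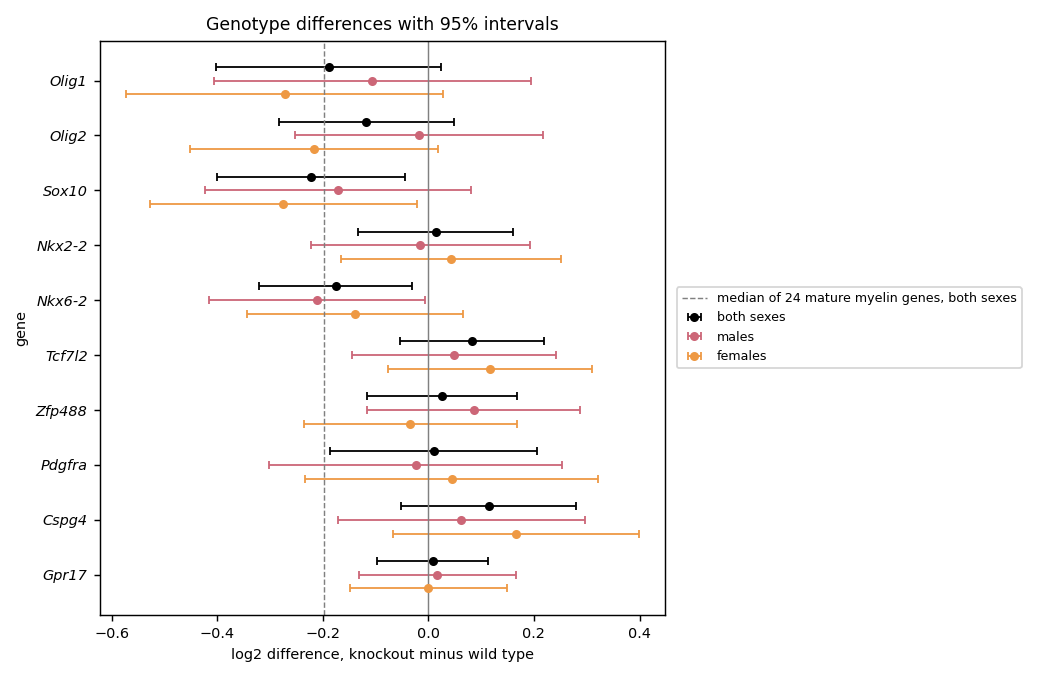
Genotype differences of the 10 lineage genes (horizontal axis, log2, knockout minus wild type), with 95% intervals from limma. They are shown over both sexes, in males and in females. The dashed line marks the median difference of 24 mature myelin genes over both sexes, -0.20. That median was -0.13 in males and -0.26 in females, which are not drawn. The intervals over both sexes lie below 0 for Sox10 and Nkx6-2 before adjustment and include 0 for the other 8 genes.

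Split by sex, none of the 10 passed in males or in females, where 0.0225% of all genes passed in each (limma). At an unadjusted p under 0.05 there was 1 in males, Nkx6-2 (-0.21, SE 0.09; adjusted p = 0.903), against 5.42% of all genes, and 1 in females, Sox10 (-0.27, SE 0.12; adjusted p = 0.556), against 8.49%. Female arrays of the genotypes did not overlap for 4 of 10 genes, where 14.9% of all genes showed this: Olig1 (-0.27), Sox10 and Nkx6-2 (-0.14) were lower and Tcf7l2 (0.12) higher. In males Nkx6-2 alone did not overlap, against 10.3% of all genes. The male difference of Nkx6-2 was -0.09 without KO_male replicate 2, and that of Sox10, -0.17 with all arrays, was -0.07 without KO_male replicate 3. The female difference of Olig2 went from -0.22 to -0.12, and that of Nkx6-2 to -0.08, without WT_female replicate 1.

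Olig2 had differences of -0.02 in males and -0.22 in females, the widest gap between the sexes among the 10 with all arrays in. That gap itself was -0.20 (SE 0.15; 95% interval -0.53 to 0.13; limma adjusted p = 0.999). None of the 10 passed the test of a different genotype effect in the sexes, at adjusted p from 0.999 upwards, and the intervals leave room for sizeable differences. After adjustment 0% of all genes passed it, with 4.82% of all genes and 0 of 10 at an unadjusted p under 0.05. Between the sexes, averaged over genotype, none of the 10 passed either, against 0.0361% of all genes. Olig2 was higher in females on average by 0.15 (SE 0.08; adjusted p = 0.668) and Sox10 lower by 0.16 (female minus male -0.16, SE 0.08; adjusted p = 0.668), and without adjustment 0 of 10 passed at 0.05 against 7.93% of all genes.

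WT_male replicate 3, the array with the raised Xist level, moved several of these values, and none of the 10 passed without it. Over both sexes the differences became -0.13 for Olig1 and, beyond 1.5 times, 0.0067 for Nkx2-2, 0.047 for Zfp488, 0.039 for Pdgfra, 0.067 for Cspg4 and -0.0021 for Gpr17. In males Olig1 turned from -0.11 to 0.016, Cspg4 from 0.06 to -0.03, Pdgfra from -0.02 to 0.03 and Gpr17 from 0.017 to -0.0041, while Sox10 became -0.10, Olig2 -0.05 and Nkx2-2 -0.03. Olig1 then had the widest gap between the sexes, -0.29 in place of -0.17, ahead of Cspg4 at 0.20, Sox10 at -0.17 and Olig2 at -0.17. The gap of Pdgfra became 0.010 and that of Gpr17 0.0039. Averaged over genotype, female minus male became 0.05 for Olig1, -0.020 for Nkx2-2, -0.05 for Pdgfra, -0.07 for Cspg4 and -0.025 for Gpr17.

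The lineage genes were set beside further genes of the same cells, ordered by stage. Of 14 measured precursor genes other than the 3 markers, 6 were higher and 8 lower in the knockout, with a median of -0.04 and 0 past the threshold. The smallest unadjusted p were those of Xylt1, a proteoglycan xylosyltransferase (-0.15, SE 0.05; adjusted p = 0.397), Cacng4, an AMPA receptor auxiliary subunit (0.17, SE 0.07; adjusted p = 0.492), and Lhfpl3 (-0.13, SE 0.05; adjusted p = 0.5). All 11 measured genes of newly formed oligodendrocytes were lower on average, with a median of -0.06 and 0 past the threshold, where 49.6% of all genes were higher. Taken by sex, 2 of the 11 were higher in males and 3 in females. The median of the astrocyte and Bergmann glia markers was also -0.06. Enpp6, a choline phosphodiesterase of cells that have just begun to differentiate, had a difference of -0.20 (SE 0.06; adjusted p = 0.35), Bcas1 one of -0.18 (SE 0.07; adjusted p = 0.517) and the focal adhesion protein Tns3 one of -0.09 (SE 0.05; adjusted p = 0.617).

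Mature myelin genes had the lowest median of these lists, at -0.20 over 24 measured genes. There, 23 of 24 were lower, 15 were lower at an unadjusted p under 0.05, as were 4.87% of all genes, and 1 passed after adjustment, Opalin (-0.45, SE 0.06; adjusted p = 0.037). Mal, a raft protein of myelin, had a difference of -0.36 (SE 0.06; adjusted p = 0.154) and Cldn11, the tight junction protein of the sheath, one of -0.28 (SE 0.07; adjusted p = 0.267). By sex, the median of the 24 was -0.13 in males and -0.26 in females. At an unadjusted p under 0.05, 2 were lower in males and 11 in females (all genes, either direction: 5.42% and 8.49%). After adjustment 0 passed in males and 1 in females. Opalin stood at 7.33 to 7.52 in KO_male and 6.74 to 6.90 in KO_female, against 7.44 to 7.71 in wild type. None of the 24 passed the test of a different genotype effect in the sexes. These genes were known from earlier results on the same arrays to be lower, so they give a frame for the lineage genes and no separate evidence.

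**Figure D3:**
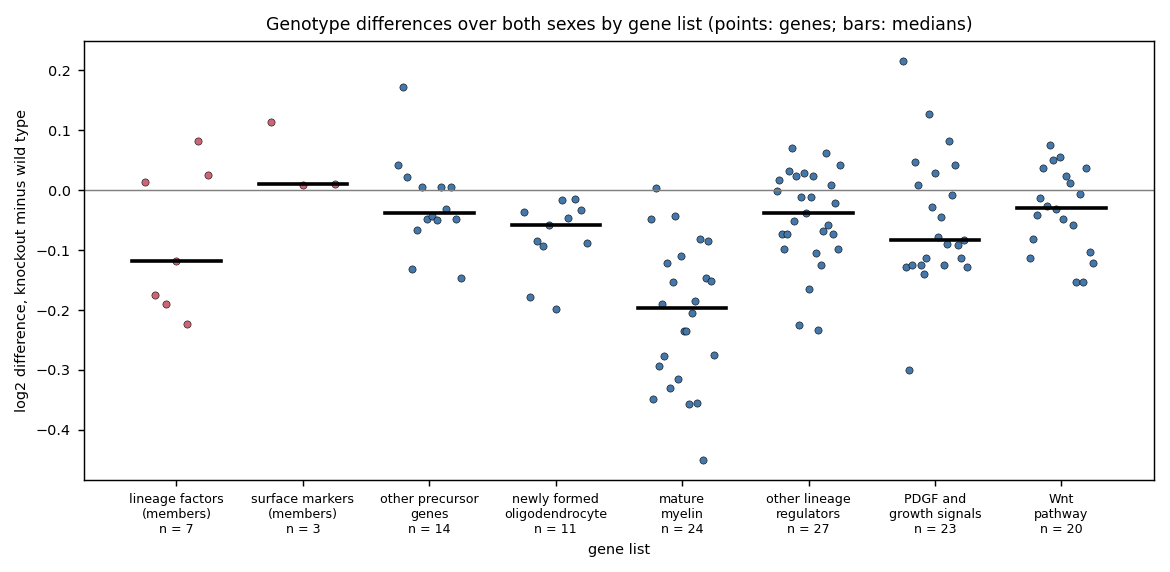
Genotype differences over both sexes (vertical axis, log2, knockout minus wild type) for the 10 lineage genes, split into transcription factors and surface markers, and for 6 lists of related genes. Points are genes and bars are medians; the mature myelin genes have the lowest median, -0.20, and the 3 surface markers lie between 0.0083 and 0.11.

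Other regulators of the lineage had a median of -0.04, with 18 of 27 lower and 0 past the threshold. Sox8, the closest relative of Sox10 and partly redundant with it, differed by -0.23 (SE 0.05; adjusted p = 0.229). The RNA-binding protein Qk, which processes myelin transcripts, differed by -0.17 (SE 0.05; adjusted p = 0.379) and Myrf, the membrane-bound factor that turns on the myelin programme, by -0.22 (SE 0.08; adjusted p = 0.462). Among PDGF and other growth signals of precursors, 16 of 23 were lower, with a median of -0.08 and 0 past the threshold. Erbb3, the neuregulin receptor of oligodendrocytes and Schwann cells, differed by -0.30 (SE 0.08; adjusted p = 0.316), the chemokine Cxcl12 by 0.22 (SE 0.07; adjusted p = 0.454) and the receptor Fgfr2 by -0.12 (SE 0.04; adjusted p = 0.462). In the Wnt pathway, through which Tcf7l2 acts, 13 of 20 genes were lower, with a median of -0.03 and 0 past the threshold. Apc, the scaffold that destroys beta-catenin, differed by -0.11 (SE 0.04; adjusted p = 0.493), the receptor ligase Znrf3 by -0.12 (SE 0.05; adjusted p = 0.5) and the secreted inhibitor Wif1 by -0.15 (SE 0.06; adjusted p = 0.5).

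Whether the lineage genes followed the myelin genes from animal to animal was asked with the mean log2 level of the 24 myelin genes on each array. Nkx6-2 followed it most closely, with r = 0.80 and rho = 0.85 over 12 arrays (permutation test, two-sided, p = 0.00028 and 0.00076, adjusted over the 10 relations 0.0028 and 0.0076). Olig1 came next with r = 0.78 and rho = 0.73 (permutation p = 0.00415 and 0.00808, adjusted 0.0163 and 0.0404). Sox10 had r = 0.67 and rho = 0.66 (permutation p = 0.0195 and 0.0231, adjusted 0.0487 and 0.0609). Tcf7l2 went the opposite way, with r = -0.71 and rho = -0.66 (permutation p = 0.00489 and 0.0244, adjusted 0.0163 and 0.0609). Olig2 had r = 0.55 (permutation p = 0.0649, adjusted 0.13) and rho = 0.49 (permutation p = 0.11, adjusted 0.184). By Pearson r 4 of 10 thus passed, while 4.18% of all genes other than the myelin genes (927 of 22156) had an r as far from 0 as Sox10 or farther.

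Nkx2-2, Zfp488, Pdgfra, Cspg4 and Gpr17 had r from -0.38 to 0.11 with the myelin level (permutation p from 0.223 to 0.988, adjusted 0.372 to 0.988; rho from -0.50 to -0.0070, permutation p from 0.104 to 0.991). With the mean of each group taken off both measures, r was 0.89 for Nkx6-2, 0.68 for Olig1, 0.66 for Olig2, 0.32 for Sox10 and -0.75 for Tcf7l2. Without KO_male replicate 2 and KO_female replicate 2, the arrays farthest from the median myelin level, r was 0.71 for Nkx6-2, 0.72 for Olig1, 0.65 for Sox10, 0.19 for Olig2 and -0.38 for Tcf7l2, and none of the 10 relations passed over the remaining 10 arrays (adjusted permutation p from 0.0986 to 0.925). The relation of Tcf7l2 to the myelin level thus rested on these arrays, as did the weaker one of Olig2, whose r was 0.39 without KO_male replicate 2 alone. Within the 6 knockout arrays r of Tcf7l2 was -0.85, and within the 6 wild-type arrays it was 0.31. In the same order r was 0.62 and -0.07 for Sox10 and 0.68 and 0.13 for Olig2. It was 0.64 and 0.61 for Nkx6-2 and 0.71 and 0.64 for Olig1. The permutations mixed the genotypes, so their p also takes in a genotype difference shared by both measures.

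**Figure D4:**
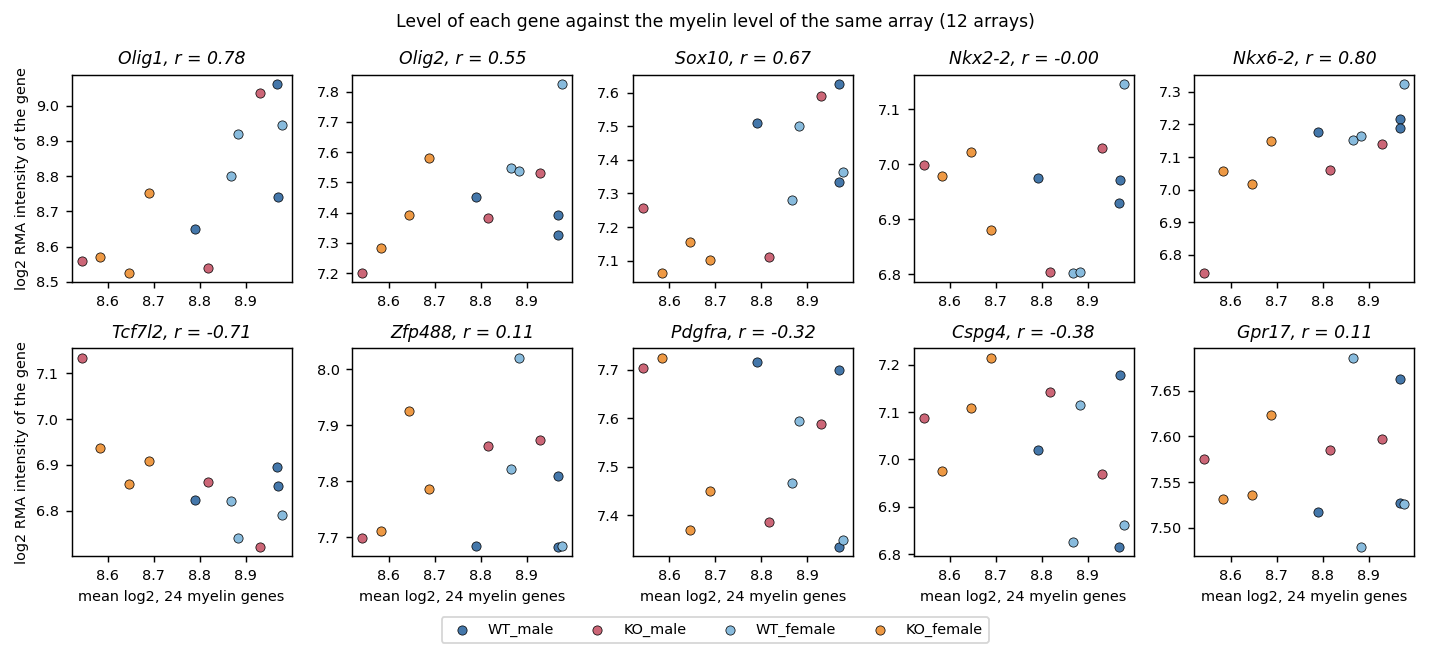
Level of each lineage gene (vertical axis, log2 RMA intensity) against the mean log2 level of 24 mature myelin genes on the same array (horizontal axis), 12 arrays coloured by group, with Pearson r. Nkx6-2 (r = 0.80) and Olig1 (r = 0.78) are higher on arrays with a higher myelin level, and Tcf7l2 (r = -0.71) is lower there, with KO_male replicate 2 as the extreme point for Nkx6-2 and Tcf7l2.

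Taken relative to the myelin level of the same array, in a comparison chosen after the data were seen, the 10 genes gave relative differences from -0.02 to 0.32. The value was 0.02 for Olig1, -0.02 for Sox10 and 0.03 for Nkx6-2, and 0.09 for Olig2. It was 0.22 for Nkx2-2, 0.23 for Zfp488, 0.22 for Pdgfra, 0.22 for Gpr17, 0.29 for Tcf7l2 and 0.32 for Cspg4, beside a median of 0.21 over all genes. Of the 10, Cspg4 passed this test (SE 0.10; limma adjusted p = 0.044), where 19.4% of all genes did. Pdgfra (adjusted p = 0.131), Gpr17 (adjusted p = 0.0679) and Tcf7l2 (adjusted p = 0.0565) did not. The share of the 10 that passed was no higher than among all genes.

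Of 45 pairs of lineage genes compared across the 12 arrays, 4 had r over 0.5 and 5 had r under -0.5, as a description with no test, since all genes share the same arrays. Olig1 went with Sox10 (r = 0.78), Nkx6-2 (r = 0.62) and Olig2 (r = 0.52), and Olig2 with Nkx6-2 (r = 0.74). Tcf7l2 ran against Nkx6-2 (r = -0.78), Olig2 (r = -0.67) and Olig1 (r = -0.55), Olig1 against Cspg4 (r = -0.523) and Nkx2-2 against Zfp488 (r = -0.503). The pair Olig1 and Sox10 held r from 0.71 to 0.88 when any 1 array was left out, whereas that of Nkx6-2 and Tcf7l2 ranged from -0.83 to -0.35. Sox10 and Olig2 had r = 0.18.

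Markers of the other cells of the sample were measured beside these relations. KO_male replicate 2 had the lowest myelin level (8.54), the lowest Olig2 and Nkx6-2, the highest Tcf7l2, the highest mean level of the Purkinje markers (10.95) and the lowest of the granule cell markers (11.03). Meningeal fibroblast markers, a source of Pdgfra outside the lineage, were averaged over 10 genes, among them Col1a1, Col1a2 and Col3a1. They stood at 8.01 in KO_male replicate 2 and 8.02 in KO_female replicate 2, against 7.49 to 7.78 on the other 10 arrays, with medians of 0.03 for their genotype difference and 0 of 10 past the threshold. Pdgfra went with these markers across the arrays (r = 0.73, rho = 0.80; r = 0.60 without these 2 arrays). It also went with the Wnt pathway genes (r = 0.68, or 0.90 with group means taken off), the choroid plexus markers (r = 0.61), the Purkinje markers (r = 0.54) and the PDGF and other growth signals (r = 0.53, or 0.81 with group means taken off). Its r with the other precursor genes was -0.0067, where that of Cspg4 was 0.26 and that of Gpr17 -0.60 (rho = -0.73). With 1 array left out the r of Gpr17 ranged from -0.72 to -0.42. These are descriptions with no test. The share of the Pdgfra signal from fibroblasts was not tested.

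**Figure D5:**
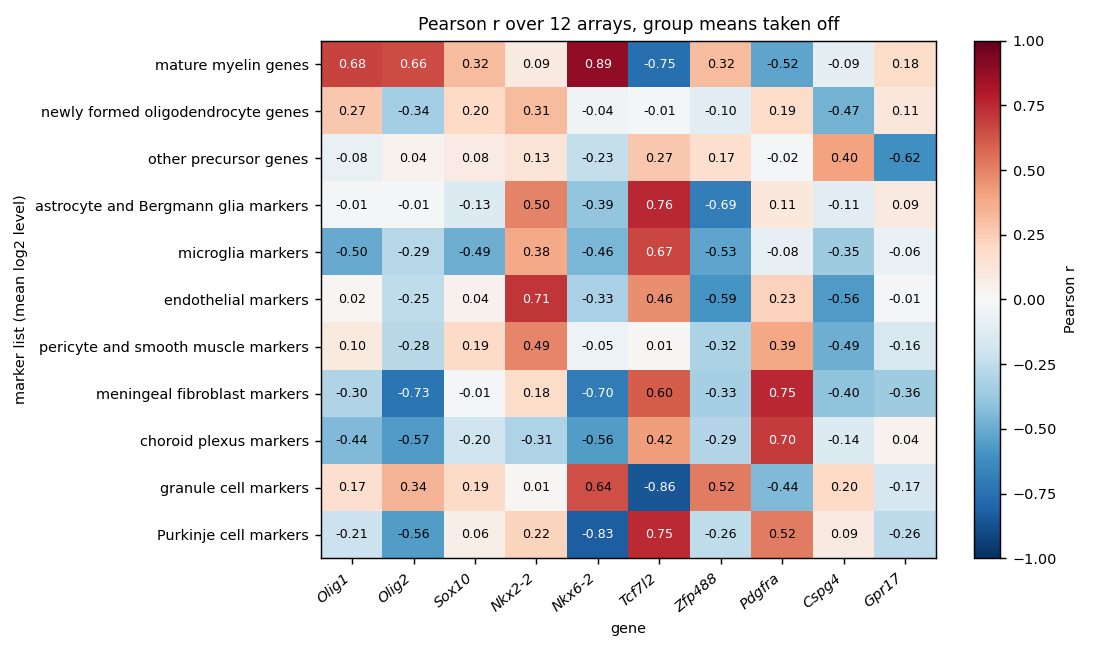
Pearson r over 12 arrays between each lineage gene (columns) and the mean log2 level of each marker list (rows), with group means taken off both; red is positive and blue negative. Nkx6-2 (0.89) and Olig1 (0.68) vary with the myelin genes, Pdgfra with meningeal fibroblast (0.75) and choroid plexus (0.70) markers, and Tcf7l2 against granule cell markers (-0.86). Nkx6-2 also varies against Purkinje markers (-0.83), and Tcf7l2 with Purkinje (0.75) and astrocyte (0.76) markers. The Wnt pathway (0.90) and PDGF and other growth signals (0.81), with which Pdgfra had a higher r, are not drawn.

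Tcf7l2 ran against the granule cell markers, with r = -0.64 over the 12 arrays and -0.86 with group means taken off, and r = -0.34 without KO_male replicate 2. It went with the Purkinje (r = 0.70), microglia (r = 0.56) and astrocyte (r = 0.32) markers. With group means taken off these r were 0.75, 0.67 and 0.76. Without KO_male replicate 2 they were 0.31, 0.29 and 0.0062. Nkx6-2 ran against the Purkinje markers (r = -0.57, or -0.83 with group means taken off) and meningeal fibroblast markers (r = -0.56, or -0.70). Its r with the granule cell markers was 0.28, or 0.64 with group means taken off. Without KO_male replicate 2, r with these lists was 0.06, -0.20 and -0.45 in the same order. The r of Nkx6-2 with the astrocyte markers was then 0.75, as was that with the myelin level. Cspg4 did not go with the pericyte markers (r = -0.30). Choroid plexus markers, whose most abundant transcript is Ttr, varied most between arrays, with mean log2 levels of 6.93 to 8.40 in wild type and 6.65 to 8.05 in knockout, and all 9 measured genes were lower on average in the knockout, with a median of -0.28 and 0 past the threshold (Ttr -1.15, Folr1 -0.36, Otx2 -0.28). With this level as a covariate, the differences over both sexes were -0.24 for Olig1, -0.17 for Olig2, -0.24 for Sox10, -0.22 for Nkx6-2 and 0.09 for Pdgfra, and none passed.

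The median differences of the other marker lists lay near 0, with 0 genes past the threshold in each. Astrocyte and Bergmann glia markers had a median of -0.06 (Gfap -0.08, Aqp4 -0.17, Aldh1l1 0.01), microglia markers 0.04 (Cx3cr1 0.03, P2ry12 0.09, Tmem119 -0.07) and endothelial markers 0.02 (Pecam1 -0.04, Cldn5 0.03, Flt1 0.07). Granule cell markers had a median of 0.01 (Gabra6 0.0071, Gabrd 0.07, Cbln1 -0.05) and Purkinje cell markers 0.0016 (Calb1 -0.04, Ppp1r17 0.11, Car8 0.03). Counted by direction, 8 of 12 astrocyte markers were lower and 9 of 11 microglia markers higher, where 49.6% of all genes were higher. Higher were also 7 of 10 endothelial, 6 of 10 granule cell and 4 of 8 Purkinje cell markers.

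For each lineage gene the 3 genes most like it were taken by Pearson r over the 12 arrays, as a description. The candidates were at least 10315 named genes above the median brightness of all genes, and with so many the highest r is high by construction. Olig1 and Sox10 shared Ddr1, a collagen receptor kinase found in oligodendrocytes (r = 0.93 and 0.92). The others were Nxph4 (0.90) and Slc6a11 (0.89) for Olig1, and Nfat5 (0.92) and Retreg1 (0.92) for Sox10. Nkx6-2 was matched by Agt, the angiotensinogen gene of astrocytes (0.96), by Erbb3 (0.93) and by Ndrg1, a gene of myelinating cells (0.92). Pdgfra was matched by Myl9, a myosin light chain of smooth muscle (0.87), Entpd6 (0.86) and Pdzk1ip1 (0.84). Tcf7l2 was matched by Vsir (0.95), Krt25 (0.94) and Apip (0.92), and Olig2 by B3galt5 (0.86), Pcsk4 (0.83) and Cyp2a22 (0.82). The closest for the rest were Ndufab1 (0.89), Add1 (0.85) and Tprn (0.85) for Nkx2-2, H2ab2 (0.81), Phf11b (0.79) and H4f16 (0.76) for Zfp488, Slc39a13 (0.92), Efl1 (0.84) and Epn3 (0.84) for Cspg4, and Fkbp1a (0.84), Epc2 (0.80) and Nepro (0.79) for Gpr17.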

How the data were processed

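Per the labels, the authors made RMA values at the core-exon level with Affymetrix Expression Console; Transcriptome Analysis Console 3.0 is also named in the submitters' processing notes. The deposited values proved to be intensity on a linear scale, where log2 values had been planned for, so log2 was taken here with no pseudocount. Of 41345 rows, 23521 carry 1 gene symbol in GEO's platform annotation, 1814 several and 16010 none. The brightest row per symbol gave 22180 genes, with no filter on brightness. Probe positions were not used here, and only RefSeq promoters have coordinates.

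Limma 3.58.1 in R 4.3.3 fitted 1 mean per group over all 12 arrays with eBayes, and p-values were adjusted by Benjamini-Hochberg over 22180 genes (two-sided, threshold 0.05). The fit was tested on simulated data. Correlations used 100000 permutations. The 10 genes, the 17 gene lists (229 entries, 14 with no row of their own) and the tests were chosen with earlier results of these data known. Named were the 10 genes, each lineage or signal list's genes past the threshold and 3 smallest p, the first 3 genes of other cell lists and the 3 most alike genes. Genes outside this rule were named after their values were seen. The labels describe separate animals, and the number of arrays limits the precision. Alternatives are listed in the closing section.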

Additional observations from a re-analysis of the deposited data

How the results depend on the processing

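The 10 genes were recomputed in 5 comparisons under each alternative, giving 960 values, of which 0 passed the threshold; the smallest adjusted p was 0.242 (limma). Of these values 894 kept their sign and 66 changed it, 61 of them with 1 array left out and none larger in size than 0.0684. Nkx2-2 and Tcf7l2 have no value over genes above the median brightness. The causes of these changes were not tested. Differences whose sign changed with 1 array left out ranged as follows. Over both sexes the range was -0.015 to 0.071 for Nkx2-2, -0.013 to 0.070 for Zfp488, -0.052 to 0.053 for Pdgfra and -0.013 to 0.039 for Gpr17. In males it was -0.27 to 0.016 for Olig1, -0.10 to 0.067 for Olig2, -0.058 to 0.054 for Nkx2-2, -0.065 to 0.14 for Tcf7l2, -0.15 to 0.062 for Pdgfra, -0.032 to 0.15 for Cspg4 and -0.0093 to 0.064 for Gpr17. In females it was -0.015 to 0.16 for Nkx2-2, -0.11 to 0.055 for Zfp488, -0.061 to 0.12 for Pdgfra and -0.042 to 0.061 for Gpr17. For the difference of the genotype effect between the sexes it was -0.21 to 0.033 for Sox10, -0.012 to 0.17 for Nkx2-2, -0.045 to 0.15 for Nkx6-2, -0.024 to 0.18 for Tcf7l2, -0.036 to 0.19 for Pdgfra and -0.064 to 0.044 for Gpr17. For sex it was -0.056 to 0.068 for Olig1, -0.070 to 0.016 for Nkx2-2, -0.0023 to 0.10 for Nkx6-2, -0.085 to 0.018 for Tcf7l2, -0.066 to 0.025 for Cspg4 and -0.045 to 0.0094 for Gpr17. With the choroid plexus level as a covariate Nkx2-2 gave -0.011 over both sexes, Pdgfra 0.057 in males and Gpr17 0.0016 in females. Quantile normalization gave 0.0013 for Gpr17 in females and 0.0013 for Olig1 between the sexes.

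Counts over all genes moved more. Over both sexes, 5 genes passed, against 14 among genes above the median brightness, 18 with an intensity trend, 3 with the covariate and 3 to 8 with 1 array left out. In males 2 passed with only the arrays of that sex and 2 to 4 with 1 array left out. In females 16 passed above the median brightness, 26 with the trend, 8 on log2(value + 16) and 3 to 7 with 1 array left out. For the genotype effect between the sexes the counts were 2, 2, 1 and 0 to 1 in that order, and for sex 13 above the median brightness, 15 with the trend and 6 to 8 with 1 array left out, against 8. Of the 10 relations with the myelin level 4 passed, where 4.18% of all other genes had an r as far from 0 as the weakest of them or farther, and 0 did without the 2 arrays farthest from the median, where r became 0.19 for Olig2, 0.20 for Nkx2-2, -0.28 for Zfp488 and 0.13 for Pdgfra. No paired analysis was possible because the labels give no replicate numbers shared between groups.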
